A study of Homo sapiens with 6 samples.

Results

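The plasminogen activators and their partners were followed through 7 genes of 60663 in the deposited count table, each taken by its symbol: the activators *PLAU* and *PLAT*, the receptors *PLAUR* and *PLGRKT*, the inhibitors *SERPINE2* and *SERPINB2*, and the related serpin *SERPINF1*. The cells were CCD18Co, an established human line of fibroblasts from normal colon. They were transfected for 6 h with siRNAs against *LTBP2* (siLTBP2) or with a non-target control (siNT), in both cases with lipofectamine, and frozen 48 h after transfection. Each arm had 3 libraries of ribosome-depleted total RNA, numbered 1 to 3, and no untransfected cells were analysed here. All libraries came from 1 cell line and 1 siRNA reagent for *LTBP2*, and the labels do not say whether the replicates were separate cultures, so the p-values measure the spread between these libraries only.

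Plasminogen is a circulating zymogen that is cut to plasmin, a protease that dissolves fibrin and cleaves matrix proteins and latent growth factors. The cut is made by urokinase (*PLAU*), which acts mostly at the cell surface when held by its receptor uPAR (*PLAUR*), and by tissue plasminogen activator (*PLAT*), which acts best on fibrin. Plasminogen itself is held at the membrane by receptors such as *PLGRKT*. Serpins end the reaction by trapping the protease: *SERPINE2* (protease nexin-1) is secreted and inhibits both activators and thrombin, and *SERPINB2* (PAI-2) remains largely inside cells. *SERPINF1* (pigment epithelium-derived factor) has the serpin fold but does not inhibit proteases, so the heading of inhibitors covers it by family and not by activity. Fibroblasts are a known source of urokinase and of tissue plasminogen activator in the stroma.

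The promoters of *PLAU* and *PLAUR*, the pair that rose most, were read from the genome for side by side comparison of their sequence. Each line holds the 250 bases before and the 50 bases from the start of the canonical GENCODE transcript, 5′ to 3′ on the strand of the gene, in build GRCh38. The *PLAU* window is chr10:73910882-73911181 on the plus strand, and the *PLAUR* window is chr19:43670120-43670419 on the minus strand. Capitals mark the words that were searched on both strands: TGANTCA (an AP-1 word), GGGCGG (a GC box) and GGAATG (a TEAD word), none of which overlap here.
PLAU: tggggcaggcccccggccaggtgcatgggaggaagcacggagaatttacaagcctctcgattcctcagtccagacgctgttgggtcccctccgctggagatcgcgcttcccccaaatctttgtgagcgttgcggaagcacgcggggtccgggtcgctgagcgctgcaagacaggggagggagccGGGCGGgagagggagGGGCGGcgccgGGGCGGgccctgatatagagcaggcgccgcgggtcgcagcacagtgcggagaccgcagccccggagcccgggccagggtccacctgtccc
PLAUR: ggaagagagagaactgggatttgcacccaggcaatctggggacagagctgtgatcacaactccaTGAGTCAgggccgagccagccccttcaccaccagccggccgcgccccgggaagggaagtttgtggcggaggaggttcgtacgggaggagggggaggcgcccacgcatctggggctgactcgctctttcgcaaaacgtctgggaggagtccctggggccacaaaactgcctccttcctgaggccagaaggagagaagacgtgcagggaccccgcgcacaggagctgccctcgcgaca

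The 2 windows held different words. The *PLAU* window had 3 GC boxes, with first bases at -66, -51 and -40 from the transcript start, and no AP-1 word. The *PLAUR* window had 1 AP-1 word, TGAGTCA, at -186, and no GC box. Of 16874 tested genes with such a window, 4.87% held the AP-1 word and 63.1% a GC box, so the first was uncommon and the second frequent. Of the other genes, *SERPINB2* held an AP-1 word (TGAATCA at -102), *SERPINE2* held 4 GC boxes, *PLAT* and *PLGRKT* held 1 each, and *SERPINF1* held none of the words. The TEAD word was in none of the 7 windows, against 11.1% of all. These are letter matches and not measured binding.

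Total counts per library lay between 44663424 and 53576899, and levels are given in CPM, the read count scaled to the TMM-normalized library size, of which 1 unit stood for 43.6 to 53.9 reads. All 7 genes passed the filter on low counts and were among the 16920 genes tested by edgeR's quasi-likelihood test, with Benjamini-Hochberg adjustment over all of them. These are the adjusted p-values given below. A gene is said to have risen or fallen here when its adjusted p was below 0.05, and is called deregulated when the adjusted p was below 0.01 and the fold change above 2. *LTBP2* went from 23.1 ± 1.89 to 7.03 ± 1.39 CPM with siLTBP2 (SD, n = 3), which left 30.4% of the siNT level. Fibroblast markers were abundant, with *COL1A1* at 2278 ± 488 CPM and *VIM* at 4871 ± 359 CPM in siNT (SD, n = 3). Of the 10 used, *PDGFRB* fell (log2 fold change -0.60, adjusted p = 0.0025) and 9 did not pass. The epithelial, endothelial and immune markers *EPCAM*, *CDH1*, *CDH5* and *CD3E* had at most 2 reads in any library. Others had more, with up to 4400 reads for *KRT18*, 705 for *KRT8* and 85 for *VWF*. *CD68* had up to 15 reads, *KRT19* 13, *PECAM1* 12, *CD14* 10 and *PTPRC* 8. *KRT18* was deregulated, with a 2.22-fold rise (adjusted p = 2.4e-04), and *KRT8* did not pass (adjusted p = 0.085). The smooth muscle marker *ACTA2* had up to 3889 reads, and *CNN1* and *MYH11* at most 5. The summed level of the 6 epithelial markers was 40.2 to 52.6 CPM in siNT and 85.6 to 99.3 CPM in siLTBP2, nearly all of it *KRT18* and *KRT8*, while *KRT20* was at 0 in all libraries. The part of this shift in the results was not tested. In bulk RNA a change in the RNA made per cell and a change in the mixture of cell states cannot be told apart.

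In siLTBP2 the urokinase side of the system was higher and tissue plasminogen activator was lower. *PLAUR* rose 2.77-fold, *PLAU* 2.36-fold, *PLGRKT* 1.63-fold and *SERPINE2* 1.51-fold, and *PLAT* fell to 54.1% of siNT. *SERPINB2* and *SERPINF1* did not pass the test. Thus 4 of the 7 genes rose and 1 fell, where 9.76% of all tested genes rose and 9.51% fell (19.3% together). *PLAU* and *PLAUR* were deregulated, against 2.57% of all tested genes (1.29% upward). The groups did not overlap in 5 of the 7 genes, against 37.0% of tested genes. The median log2 fold change of the 7 genes was 0.59, and that of all tested genes was -0.01. For a single gene, an exact permutation test of 3 libraries against 3 cannot go below p = 0.1 (two-sided), and it gave 0.1 for each of these 5 genes.

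**Figure D1:**
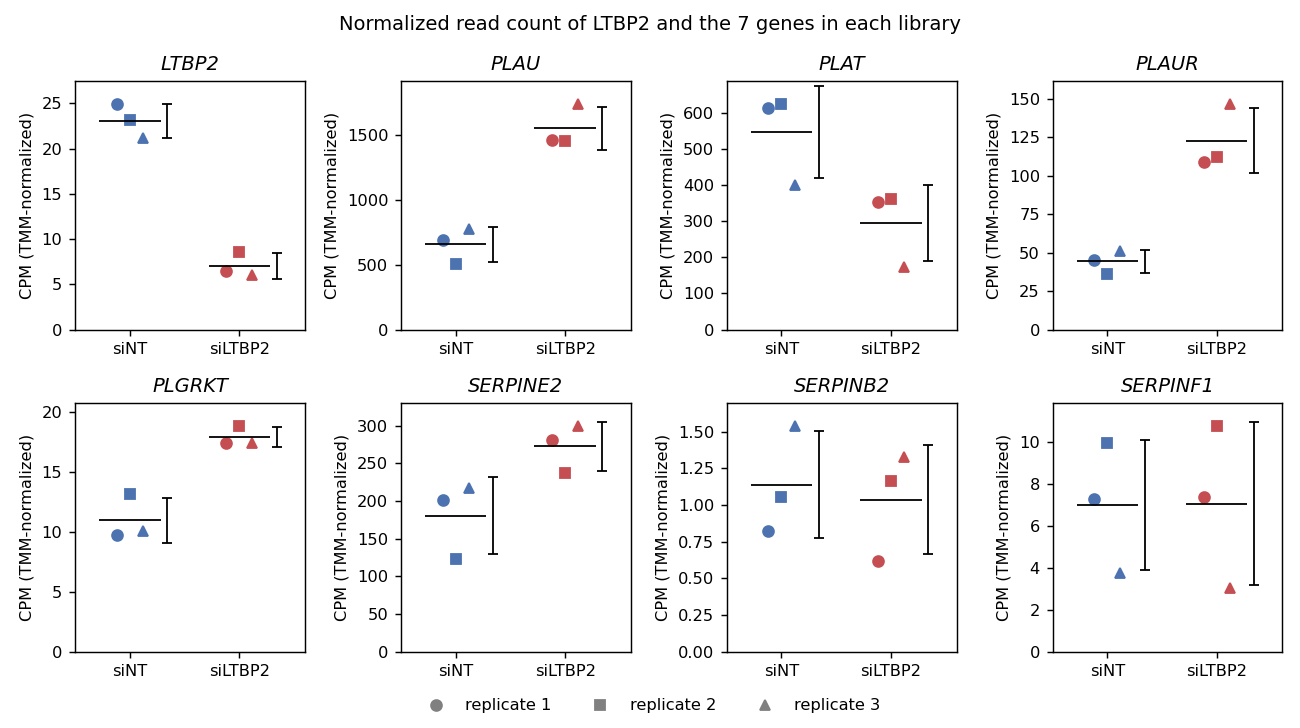
TMM-normalized CPM (linear axis from 0) of *LTBP2* and the 7 genes in each of the 3 siNT (blue) and 3 siLTBP2 (red) libraries, with the symbol giving the replicate number, the horizontal line the mean and the bar the SD. *PLAU*, *PLAUR*, *PLGRKT* and *SERPINE2* are higher in all 3 siLTBP2 libraries than in any siNT library, *PLAT* is lower in all 3, and *SERPINB2* and *SERPINF1* overlap.

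Among the activators, *PLAU* (ENSG00000122861) lies on the plus strand of chromosome 10 from 73909177 to 73917496, with 11 exons in its canonical transcript. Its level was 691, 508 and 771 CPM in siNT replicates 1 to 3 and 1457, 1448 and 1739 CPM in siLTBP2 replicates 1 to 3. The lowest siLTBP2 library was thus far above the highest siNT library. The means were 657 ± 135 and 1548 ± 165 CPM (SD, n = 3), a log2 fold change of 1.24 ± 0.15 (SE, adjusted p = 4.1e-04). Exons of the antisense RNA gene *C10orf55* cover 915 bases of *PLAU* exons. That gene had 1473 reads in all 6 libraries together, against 322185 for *PLAU*. The strand setting of the counts was not given, so the effect of this overlap on the *PLAU* count cannot be read from these totals.

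*PLAT* (ENSG00000104368), on the minus strand of chromosome 8 from 42174718 to 42207709 with 14 exons, moved the other way. It had 613, 625 and 400 CPM in siNT replicates 1 to 3 and 353, 360 and 174 CPM in siLTBP2 replicates 1 to 3. The groups did not overlap, but the lowest siNT library and the highest siLTBP2 library were only 40.2 CPM apart. The means were 546 ± 127 and 295 ± 106 CPM (SD, n = 3), with a log2 fold change of -0.89 ± 0.25 (SE, adjusted p = 0.033). The call did not hold with DESeq2 (log2 fold change -0.89, adjusted p = 0.052), without siNT replicate 1 (-0.80, adjusted p = 0.087) or without siNT replicate 2 (-0.78, adjusted p = 0.13).

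As the activators moved apart, their balance was also computed within each library on the scale of CPM per kb of merged exon length, with no test since the genes were chosen with their changes known. *PLAU* made up 74.8%, 68.2% and 83.6% of the sum of *PLAU* and *PLAT* in siNT replicates 1 to 3, and 91.6%, 91.4% and 96.4% in siLTBP2 replicates 1 to 3. The ratio of *PLAU* to *PLAT* on this scale went from 2.14 to 5.08 among siNT libraries and from 10.6 to 26.4 among siLTBP2 libraries. In both groups the highest ratio was that of replicate 3. The size of these values depends on the length used, since the merged exons of *PLAT* span 7770 bases and its canonical transcript 3062. The canonical transcript length was applied to the ratios after the data were seen. Per kb of it, the ratio was 1.06 to 2.52 in siNT and 5.26 to 13.1 in siLTBP2. *PLAU* then made up 51.5% to 71.6% and 84.0% to 92.9% of the sum. Another length scales the ratio alike in every library, so it cannot change whether the groups overlap. The ratio was also bound to separate the groups, since both genes already did so in opposite directions.

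Of the receptors, *PLAUR* (ENSG00000011422), on the minus strand of chromosome 19 from 43646095 to 43670547 with 7 exons, had the largest fold change of the 7 genes. uPAR is a lipid-anchored surface protein with no cytoplasmic part. Its transcript was at 45.5, 36.3 and 51.1 CPM in siNT replicates 1 to 3 and at 109, 112 and 147 CPM in siLTBP2 replicates 1 to 3. Each siLTBP2 library had more than any siNT library by at least 57.8 CPM. The means were 44.3 ± 7.49 and 123 ± 20.9 CPM (SD, n = 3), the log2 fold change was 1.47 ± 0.15 (SE) and the adjusted p was 1.3e-04, at rank 109 of all tested genes by p-value. The ratio of *PLAU* to *PLAUR* in CPM per kb of merged exon length was 22.3 ± 1.00 in siNT and 19.2 ± 1.18 in siLTBP2 (SD, n = 3), and it was lower in every siLTBP2 library (17.9 to 20.2) than in any siNT library (21.1 to 23.0). Per kb of canonical transcript it was 8.62 ± 0.388 and 7.41 ± 0.456. This length scales all libraries alike, so it is no further check of the difference between the groups.

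*PLGRKT* (ENSG00000107020), on the minus strand of chromosome 9 from 5357971 to 5437925, encodes a membrane protein whose terminal lysine binds plasminogen. It was at 9.71, 13.1 and 10.1 CPM in siNT replicates 1 to 3 and at 17.4, 18.8 and 17.4 CPM in siLTBP2 replicates 1 to 3. The siLTBP2 libraries were close to each other and above all siNT libraries. The log2 fold change was 0.71 ± 0.13 (SE, adjusted p = 0.0044), below the 2-fold limit for deregulated genes. Plasminogen itself (*PLG*), the substrate of both activators, had 2 reads in 1 siLTBP2 library and 0 in the other libraries, where 0 reads allow a level of up to 0.0556 to 0.0688 CPM (3 reads, counting error only).

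Among the inhibitors, *SERPINE2* (ENSG00000135919), on the minus strand of chromosome 2 from 223975045 to 224039318, rose least of the genes that passed. Its level was 201, 123 and 218 CPM in siNT replicates 1 to 3 and 281, 237 and 300 CPM in siLTBP2 replicates 1 to 3. The groups did not overlap, but siNT replicate 2 lay well below the other siNT libraries. The log2 fold change was 0.59 ± 0.18 (SE, adjusted p = 0.045). With 1 library left out the call was kept only without siNT replicate 3, and the adjusted p was 0.061 without siNT replicate 1, 0.063 without siNT replicate 2 (log2 fold change 0.38), 0.084 without siLTBP2 replicate 1, 0.061 without siLTBP2 replicate 2 and 0.075 without siLTBP2 replicate 3.

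*SERPINB2* (ENSG00000197632), on the plus strand of chromosome 18 from 63871692 to 63903888, was at a very low level. It had 38, 52 and 83 reads in siNT replicates 1 to 3 and 27, 55 and 70 reads in siLTBP2 replicates 1 to 3. In CPM it ranged from 0.822 to 1.54 in siNT and from 0.619 to 1.33 in siLTBP2, so the groups overlapped throughout. Its log2 fold change was -0.13 with a 95% interval from -0.84 to 0.58 (adjusted p = 0.82).

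*SERPINF1* (ENSG00000132386), on the plus strand of chromosome 17 from 1762029 to 1777565, had 7.31, 9.95 and 3.75 CPM in siNT replicates 1 to 3 and 7.39, 10.8 and 3.04 CPM in siLTBP2 replicates 1 to 3. The libraries of each group differed by more than 2-fold among themselves, and the same replicate numbers were high and low in both groups. The log2 fold change was 0.01 with a 95% interval from -0.90 to 0.93 (adjusted p = 0.99).

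This agreement of replicate numbers was seen in the other genes too. In 7 of the 7 genes the library with the highest CPM had the same number in siNT and in siLTBP2, and in 6 of the 7 the lowest did, *PLAUR* being the exception, against 49.8% and 48.7% of all tested genes. For *PLGRKT* the lowest siLTBP2 library, replicate 1, was practically level with replicate 3. Replicate 3 of both groups was highest in *PLAU*, *PLAUR*, *SERPINE2* and *SERPINB2*, and lowest in *PLAT* and *SERPINF1*. It thus lay toward higher urokinase and lower tissue plasminogen activator in control cells as well as in silenced cells. The labels do not say that a number marks a shared culture or day.

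Levels were compared between genes only after division by merged exon length. In siNT the order was *PLAU* (223 ± 45.8 CPM per kb), *PLAT* (70.3 ± 16.3), *SERPINE2* (20.2 ± 5.67), *PLAUR* (9.94 ± 1.68), *PLGRKT* (7.11 ± 1.22), *SERPINF1* (2.34 ± 1.04) and *SERPINB2* (0.415 ± 0.134), each as mean ± SD of 3 libraries. *PLAU* was higher per kb than 99.4% of tested genes or as high, and *SERPINB2* than 19.8%. *PLAUR* and *PLGRKT* were the neighbours whose libraries overlapped in siNT, at 8.14 to 11.5 and 6.30 to 8.51 CPM per kb. This overlap depended on the length used. In siNT they were at 26.5 to 37.4 and 9.90 to 13.4 per kb of canonical transcript. Per kb of coding length they were at 36.1 to 50.9 and 22.0 to 29.8, again without overlap. In siLTBP2 the middle of the order closed up: *PLAT* at 22.3 to 46.3, *SERPINE2* at 26.4 to 33.5 and *PLAUR* at 24.4 to 32.9 CPM per kb overlapped, while *PLAUR* lay apart from *PLGRKT* (11.3 to 12.2). The overlap of *SERPINE2* with *PLAUR* depended on the length: per kb of coding length, likewise applied to siLTBP2 after the data were seen, they were at 199 to 252 and 108 to 146 in siLTBP2, with *PLAT* at 103 to 213. The order in siNT did not change with the canonical transcript length or the coding length in place of merged exons.

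**Figure D2:**
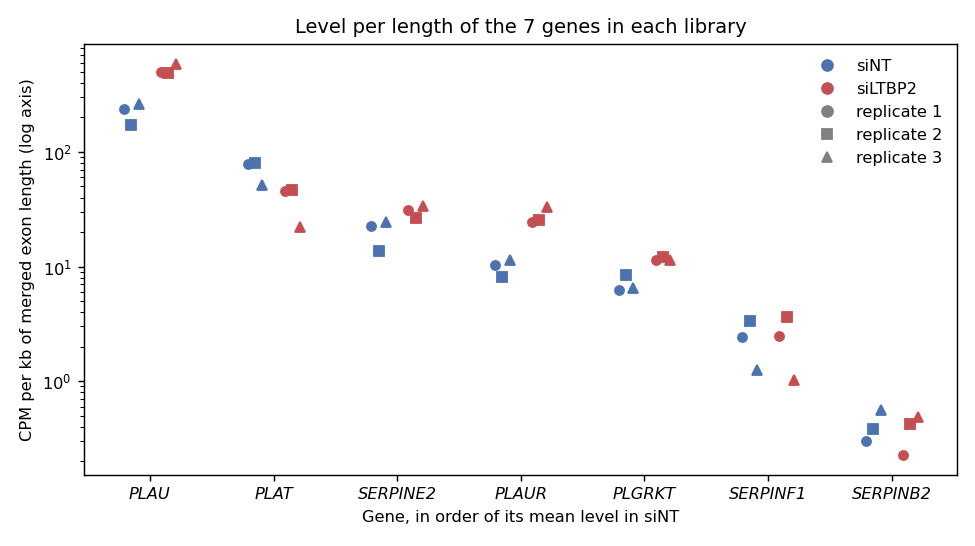
CPM per kb of merged exon length (log axis) of the 7 genes in the 3 siNT (blue) and 3 siLTBP2 (red) libraries, ordered by the siNT mean, with the symbol giving the replicate number. The levels span from 0.226 CPM per kb (*SERPINB2*) to 590 (*PLAU*), and *PLAT*, *SERPINE2* and *PLAUR* come to overlap in siLTBP2.

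The genes around the 7 were taken from lists of the plasminogen system, and their counts are read beside the 9.76% of all tested genes that rose and the 9.51% that fell. Of 10 genes for receptors and surface binding, all tested, 5 rose and none fell, and their median log2 fold change was 0.41, where all genes had -0.01. Besides *PLAUR* and *PLGRKT*, these were *VLDLR*, an endocytic receptor that clears complexes of urokinase with its inhibitors (2.91 ± 0.62 to 7.04 ± 0.47 CPM, log2 fold change 1.27), *IGF2R*, which binds uPAR and plasminogen (334 ± 53.2 to 474 ± 45.8 CPM, log2 fold change 0.51), and *ANXA2*, a surface protein that holds tissue plasminogen activator and plasminogen (1302 ± 83.2 to 1822 ± 166 CPM, log2 fold change 0.48). Each of these is mean ± SD with n = 3. *ANXA2* lost its call without siNT replicate 3 or siLTBP2 replicate 2, and *IGF2R* without siLTBP2 replicate 1. The log2 fold changes of those that did not pass were 0.30 for *ENO1* (adjusted p = 0.057), -0.12 for *LRP1*, the main clearance receptor (adjusted p = 0.75), and -0.14 for *MRC2* (adjusted p = 0.45). *ENO1* (alpha-enolase, which binds plasminogen at the cell surface) stood near the threshold, and passed with the likelihood ratio test (adjusted p = 0.019), DESeq2 (0.0078), upper-quartile factors (0.048), total counts (0.048) and a filter of 1 CPM in 3 libraries (0.040).

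Of 12 inhibitor genes, 7 were tested, of which 1 rose (*SERPINE2*) and 1 fell, with a median log2 fold change of -0.12. The gene that fell was *SERPINI1* (neuroserpin, an inhibitor of tissue plasminogen activator), from 0.886 ± 0.0883 to 0.408 ± 0.173 CPM (SD, n = 3), a log2 fold change of -1.14 at very low counts (adjusted p = 0.037). Its call was kept only without siLTBP2 replicate 1 when 1 library was left out. *TFPI2*, an inhibitor of plasmin secreted into the matrix, was abundant, with 414 ± 73.3 CPM among siNT and 381 ± 40.0 CPM among siLTBP2 libraries (SD, n = 3) and a log2 fold change of -0.12 (adjusted p = 0.60). Of 3 tested genes among 8 activators and zymogens, *PLAU* rose, *PLAT* fell and *F12* did not pass (log2 fold change 0.34, adjusted p = 0.40), and *F12* shares exon bases with *GRK6* on the other strand.

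Among all 35 serpin genes in the table, 12 were tested, 2 rose and 2 fell, and 12 had no read in any library. *SERPINB7* was the deregulated one, from 7.99 ± 1.77 to 18.6 ± 2.29 CPM (SD, n = 3), a log2 fold change of 1.22 (adjusted p = 6.6e-04). *SERPINB9*, the inhibitor of granzyme B, had a log2 fold change of -0.63 (adjusted p = 0.040), and lost its call whichever library was left out. The collagen chaperone *SERPINH1* had one of 0.23 (adjusted p = 0.21), *SERPINB6* one of 0.04 (adjusted p = 0.80) and *SERPINB8* one of 0.22 (adjusted p = 0.35).

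Of 14 genes whose proteins plasmin or its activators can cleave, 12 were tested, 3 rose and 2 fell. *MMP1* (interstitial collagenase) rose from 19.5 ± 4.73 to 39.0 ± 3.47 CPM, *FN1* (fibronectin) from 1164 ± 137 to 1969 ± 152 CPM, and *LTBP1* from 139 ± 25.0 to 255 ± 37.7 CPM (SD, n = 3). *IGFBP5* fell, with a log2 fold change of -0.88 (adjusted p = 0.011), and so did *PDGFD*, a growth factor that urokinase activates, with -0.69 (adjusted p = 0.022). *PDGFD* lost its call without siNT replicate 1 or siNT replicate 2. *HGF* (log2 fold change 0.17, adjusted p = 0.67), *TGFB1* (0.25, adjusted p = 0.28) and *PDGFC* (0.05, adjusted p = 0.72) did not pass.

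The 7 genes of coagulation at the cell surface, all tested, had the most calls of these lists: 2 rose and 4 fell, with a median log2 fold change of -0.70. Tissue factor (*F3*), which starts coagulation, fell from 1069 ± 120 to 508 ± 70.6 CPM (SD, n = 3), a log2 fold change of -1.07 ± 0.13 (SE, adjusted p = 3.4e-04). Its inhibitor *TFPI* rose from 217 ± 14.2 to 354 ± 32.4 CPM (SD, n = 3), a log2 fold change of 0.70 (adjusted p = 8.2e-04). The thrombin receptor *F2R* fell from 443 ± 65.6 to 195 ± 51.7 CPM and *F2RL2* from 213 ± 43.3 to 100 ± 19.8 CPM (SD, n = 3), and the protein C receptor *PROCR* had a log2 fold change of -0.70 (adjusted p = 0.0013). *F2RL1*, a receptor cleaved by trypsin-like proteases, rose with a log2 fold change of 0.49 (adjusted p = 0.024), but the call was lost when siNT replicate 2 or 3 or siLTBP2 replicate 1 was dropped. Thrombomodulin (*THBD*) did not pass (log2 fold change 0.95, adjusted p = 0.087), but it did with the likelihood ratio test (adjusted p = 0.045) and with no low-count filter (adjusted p = 0.038).

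**Figure D3:**
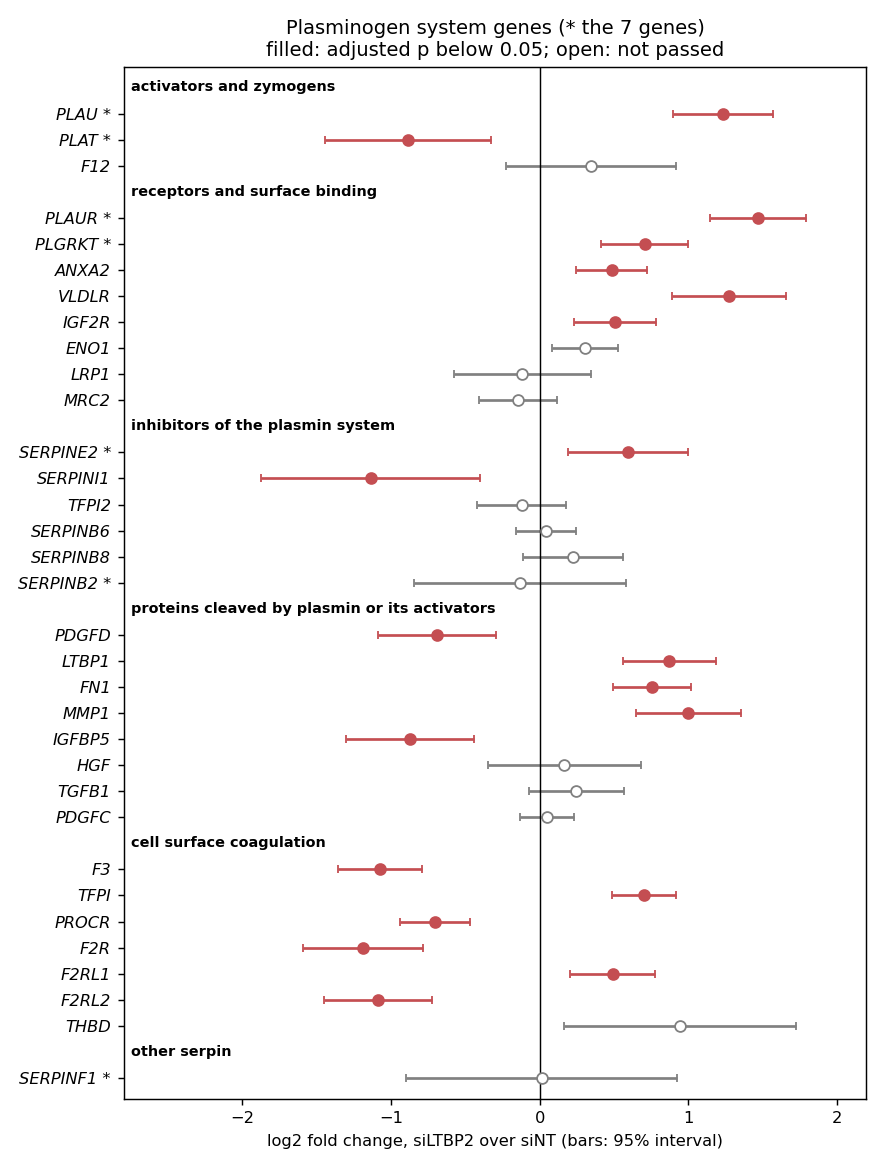
Log2 fold change of siLTBP2 over siNT with its 95% interval (bars) for the 7 genes (marked with an asterisk) and the named genes of the lists, from edgeR's quasi-likelihood test with 3 libraries a group. Filled red points passed an adjusted p of 0.05 and open points did not: *PLAU* (1.24) and *PLAUR* (1.47) lie opposite *PLAT* (-0.89), and *F3* (-1.07) lies opposite *TFPI* (0.70).

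The pattern of *PLAUR*, the gene of smallest adjusted p among the 7, was compared with all tested genes by the Pearson correlation of log2 CPM over the 6 libraries, as a description that rests mostly on the difference between the groups. The most alike named genes were *BMPER*, *MET*, *M6PR*, *YAP1* and *GLCE*, with r between 0.998 and 0.999. *PLAU* had r = 0.995, at rank 25 of all tested genes. *PLAT* had r = -0.88, *SERPINE2* 0.87 and *PLGRKT* 0.83. *SERPINB2* and *SERPINF1* had r of -0.02 and -0.28.

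**Figure D4:**
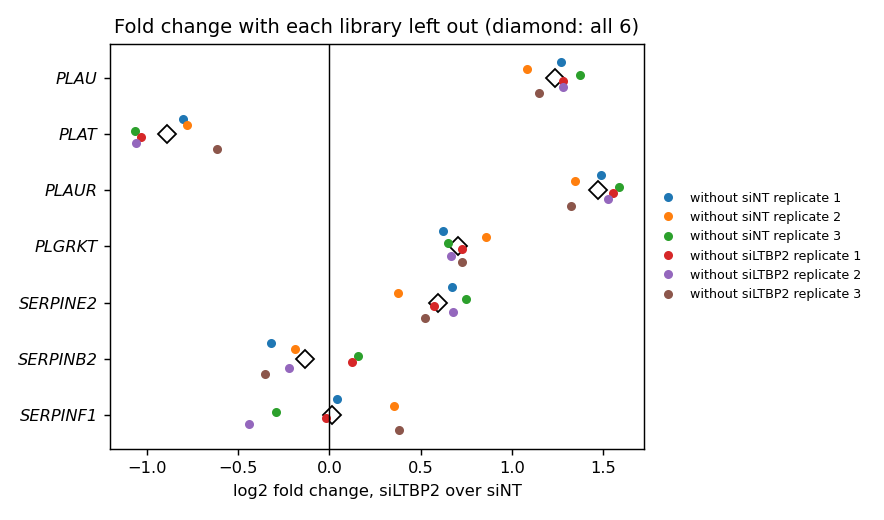
Log2 fold change of siLTBP2 over siNT for the 7 genes with all 6 libraries (diamonds) and with each library left out in turn (points). *PLAU* stays between 1.08 and 1.37, *PLAUR* between 1.32 and 1.59 and *PLGRKT* between 0.62 and 0.86, *PLAT* moves from -1.07 to -0.61 and *SERPINE2* from 0.38 to 0.75, and *SERPINB2* and *SERPINF1* fall on both sides of 0.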

How the data were processed

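The data were RNA sequencing libraries of CCD18Co cells, 3 siNT and 3 siLTBP2. The authors aligned paired reads to GRCh38 with STAR 2.7.1a and deposited the unnormalized counts that HTSeq 0.11.2 assigned to each gene (versions from the submitters' processing notes); the strand setting and the Ensembl release were not given in the sources used here. Of 60663 deposited gene identifiers, 60462 were in GENCODE 44, and 95.7% of those had the same start there, so its coordinates, exon lengths and transcript starts were used.

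After filterByExpr, counts were TMM-normalized and tested with glmQLFit and glmQLFTest of edgeR 4.0.16 in R 4.3.3, two-sided, without a block. Standard errors (SE) were obtained from each log2 fold change and the root of its F statistic. Alternatives were the likelihood ratio test of the study's methods, DESeq2 1.42.0, scaling by RLE, by the upper quartile or by totals, other low-count filters, the replicate number as a block and leaving out each library. Libraries of a group differed by more than sampling noise (chi-square per degree of freedom 16.6 to 32.6). The steps were tested on simulated data, where 41.5% of genes with a true 1.5-fold change were called. At 2-fold this was 85% and at 3-fold 100%, and 3.38% of the calls were false. A gene that did not pass can thus still have changed.

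The 7 genes and the gene lists were chosen with earlier results of these data known, so no list was tested as a set. Named were *LTBP2*, the 7 genes, list members with an adjusted p below 0.05, up to 3 others of highest CPM per list, and the 5 genes most like *PLAUR*. 1 gene named by this rule is not reported here.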

Additional observations from a re-analysis of the deposited data

How the results depend on the processing

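*LTBP2*, *PLAU*, *PLAUR* and *PLGRKT* kept their direction and an adjusted p below 0.05 under each of the 14 alternatives run. The count of 4 members higher held with all libraries kept. With 1 library left out it was 3, except without siNT replicate 3, where it was 4. The count of 2 members deregulated upward was the same under each alternative. *PLAT* was lower under each but lost its call with DESeq2 (-0.89), where no member was lower (0). *SERPINF1* changed sign with total counts (-0.032) and with the replicate block (-0.036). With no low-count filter, 2 activators and zymogens were higher. There, and under the likelihood ratio test, DESeq2 and the replicate block, 1 receptor gene was lower. With 1 CPM in 3 libraries 0 inhibitors and 1 serpin were lower, as *SERPINI1* did not pass that filter and was not tested. With 1 library left out, log2 fold changes ranged from -1.07 to -0.61 (*PLAT*), 0.38 to 0.75 (*SERPINE2*), -0.35 to 0.16 (*SERPINB2*), -0.44 to 0.38 (*SERPINF1*), -0.30 to 0.084 (*LRP1*), -0.013 to 0.12 (*SERPINB6*) and -0.10 to 0.42 (*HGF*), and counts from 0 to 1 (members, activators, receptors, inhibitors and serpins lower, inhibitors higher), 1 to 2 (cleaved proteins lower, coagulation genes higher) and 1 to 3 (serpins higher). The causes were not tested. Between the arms, deviations from the group mean had correlations of 0.30, 0.08 and 0.43 for equal numbers. For different numbers they lay between -0.39 and 0.10. The second of the equal numbers fell short of 0.1, and siNT replicate 2 correlated best with siLTBP2 replicate 1 (0.10). No pairing was therefore assumed in the main test, but a pairing by number was not excluded. With the replicate block the log2 fold changes were 1.25 (*PLAU*), -0.93 (*PLAT*), 1.47 (*PLAUR*), 0.72 (*PLGRKT*), 0.63 (*SERPINE2*) and -1.72 (*LTBP2*). The calls of all 7 genes stood, with an adjusted p of 1.5e-10 for *PLAT* and 4.05e-07 for *SERPINE2*. Over all tested genes, 3109 were higher and 3022 lower with the block, against 1652 and 1609 without it. Of the lists, 2 inhibitors, 5 cleaved proteins and 5 serpins were higher there. *ENO1* (adjusted p = 0.0029), *TGFB1* (0.0072), *SERPINH1* (0.015), *THBD* (0.017) and *SERPINB8* (0.046) passed there and not without the block. Receptor genes higher were 5 to 7 and coagulation genes higher 2 to 3 over the alternatives that kept all libraries. *SERPINB2* had 27 to 83 reads per library.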
